A study of Rattus norvegicus with 6 samples.

Results

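The 8 genes described here make up the core of the hexosamine pathway and of O-GlcNAc cycling, and were taken by gene symbol from a table of 18930 genes measured by RNA sequencing in NRK-52E cells. All 8 (Gfpt1, Gfpt2, Gnpnat1, Pgm3, Uap1, Nagk, Ogt and Oga) were found. NRK-52E is an established, wild-type epithelial line from the rat kidney. The STZ group (3 samples) was kept in streptozotocin at 10 mM for 24 h, and the Control group (3 samples) received no STZ. The study names vehicle as its control and dimethyl sulfoxide as the solvent of STZ. Whether the samples of a group were separate cultures is not stated, so the p-values given here measure the spread between these samples.

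The hexosamine pathway turns fructose 6-phosphate, glutamine and acetyl-CoA into UDP-GlcNAc, the sugar donor for many glycans. A single enzyme, OGT, uses UDP-GlcNAc to put O-GlcNAc on serines and threonines of nuclear and cytosolic proteins, and a single enzyme, OGA, takes it off. Cells are known to raise OGA and lower OGT when protein O-GlcNAc is high, and the reverse when it is low. STZ is a GlcNAc analogue with an alkylating nitrosourea group, and is known as an inhibitor of O-GlcNAcase as well as a DNA-damaging agent. Protein O-GlcNAc was not measured in these libraries.

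The 2 genes of O-GlcNAc cycling moved in opposite directions. Ogt fell by 30.2%, Oga rose by 56%, and the ratio of their counts within a library fell to 0.448 of its Control value. Along the synthesis pathway, Gfpt1 rose by 14.8% and the salvage kinase Nagk by 30%, while Gnpnat1 and Uap1 did not pass the test. Pgm3 was higher by 9.79%, a call that was lost under most other settings. Gfpt2 was close to undetected. Each called change was smaller than the fold change of 2 that the study required.

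Total counts were 10430924 to 12737131 in Control and 11658253 to 15191349 in STZ. Levels are given as CPM, the reads of a gene per 1000000 reads over the genes tested, with library totals scaled by edgeR's TMM method. The comparison used edgeR's quasi-likelihood test over the 11870 genes that passed its filter on low counts, with Benjamini-Hochberg adjustment, and "adjusted p" means the value from that test throughout. Within a group, counts varied beyond counting noise (lowest chi-square for a pair of samples, per degree of freedom, 1.85), so no library was taken for a repeat of another. This does not show that the samples were separate cultures. Beyond counting noise, edgeR's common coefficient of variation between samples of a group was 3.25%. Of the epithelial markers, Krt8 was high (1149 CPM in Control, 1604 in STZ), but Cdh1 had 16 to 35 reads per sample and was lower in STZ (log2 fold change -0.69, edgeR adjusted p = 0.03), and Krt18 and Cldn4 had at most 4 reads. The 6 proximal tubule markers included 4 (Lrp2, Slc34a1, Slc5a2 and Slc2a2, the glucose transporter GLUT2) with at most 7 reads in any sample. The other 2 moved in opposite directions, Aqp1 from 13.1 to 5.43 CPM (log2 fold change -1.25, edgeR adjusted p = 9.4e-09) and Ggt1 from 45.1 to 75.1 CPM (log2 fold change 0.73, edgeR adjusted p = 1.9e-13), and the sum of the 6 was 57.5 to 60 CPM in Control and 74.5 to 86.5 in STZ. The defining leukocyte and endothelial genes Ptprc, Pecam1 and Cdh5 had at most 2 reads, and the second leukocyte marker, Cd68, had 7 to 23 reads in Control and 21 to 29 in STZ (log2 fold change 0.40, edgeR adjusted p = 0.28). The summed level of the 5 epithelial markers found, mostly Krt8 and Tjp1, was 1706 to 1793 CPM in Control and 2285 to 2291 in STZ, and that of the 5 mesenchymal markers, mostly Vim, was 1944 to 2158 and 1870 to 1907. The part of these marker shifts in the results below was not tested. In bulk RNA, fewer cells with a transcript and less transcript per cell cannot be told apart.

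Promoter sequences of the genes whose changes are described first, and of the 2 synthesis genes that carry a motif of the unfolded protein response, are shown for orientation. They are the 250 bases before the annotated start, on the gene's own strand, from RefSeq (GRCr8, a later build than the Rnor6 of the counts), where 6 of the 8 genes had an entry. Ogt has 2 annotated starts 31 bases apart, and the upstream one is shown. Capitals mark CGCANGCG, a pattern like the site of the factor NRF1, in Ogt, Oga and Nagk, and CACGTC, the core of motifs bound by XBP1 and ATF6, in Gfpt1 and Uap1, where N is any base and both strands were searched.
Ogt, chrX:70811085-70811334, plus strand: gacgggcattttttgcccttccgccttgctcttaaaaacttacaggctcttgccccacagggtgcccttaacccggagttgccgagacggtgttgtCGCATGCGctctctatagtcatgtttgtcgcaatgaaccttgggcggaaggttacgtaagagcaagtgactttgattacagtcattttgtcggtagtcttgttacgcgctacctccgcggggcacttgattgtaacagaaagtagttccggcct
Oga, chr1:254582270-254582519, minus strand: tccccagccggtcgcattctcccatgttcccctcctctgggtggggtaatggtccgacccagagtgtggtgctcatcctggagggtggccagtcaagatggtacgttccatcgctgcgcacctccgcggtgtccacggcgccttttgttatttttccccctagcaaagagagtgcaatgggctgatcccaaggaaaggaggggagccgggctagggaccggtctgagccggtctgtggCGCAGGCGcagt
Nagk, chr4:117838731-117838980, plus strand: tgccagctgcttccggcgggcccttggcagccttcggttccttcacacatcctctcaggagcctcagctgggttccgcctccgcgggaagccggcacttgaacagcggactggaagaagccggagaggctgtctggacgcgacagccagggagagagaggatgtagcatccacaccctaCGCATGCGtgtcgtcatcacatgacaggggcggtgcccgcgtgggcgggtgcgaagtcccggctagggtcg
Gfpt1, chr4:121053839-121054088, plus strand: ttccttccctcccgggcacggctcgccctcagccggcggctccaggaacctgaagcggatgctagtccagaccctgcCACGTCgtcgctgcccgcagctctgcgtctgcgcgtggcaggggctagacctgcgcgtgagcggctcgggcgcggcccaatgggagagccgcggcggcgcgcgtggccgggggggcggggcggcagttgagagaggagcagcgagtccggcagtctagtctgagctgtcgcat
Uap1, chr13:84910240-84910489, minus strand: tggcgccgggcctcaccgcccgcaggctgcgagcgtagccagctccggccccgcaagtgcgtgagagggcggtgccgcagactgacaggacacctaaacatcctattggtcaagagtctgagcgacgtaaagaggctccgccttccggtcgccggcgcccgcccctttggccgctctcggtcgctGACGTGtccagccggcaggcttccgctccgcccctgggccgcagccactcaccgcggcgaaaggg

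Ogt and Oga, which moved in opposite directions, both held the NRF1-type pattern, as CGCATGCG 154 bases before the start in Ogt and as CGCAGGCG 12 bases before it in Oga, and Nagk held CGCATGCG 71 bases before the start. The pattern was present in 6.61% of the 33469 windows of this length in the table, whatever their base content. G and C made up 51.2% of the Ogt window shown, 62% of that of Oga and 65.6% of that of Nagk. The shares were 72.4% in Gfpt1, 70.4% in Uap1 and 44% in Gnpnat1, whose window held neither marked pattern. The median over all windows was 51.2%. CACGTC lay 173 bases before the start of Gfpt1, which rose, and, as GACGTG on the strand shown, 65 bases before that of Uap1, which did not pass the test. It was present in 5.25% of windows. None of the 6 windows held the E-box CACGTG (5.59% of windows), the antioxidant response element TGACNNNGC (10.1%) or TGATGNAA, an element of ATF4 (3.4%). These motifs were chosen after the sequences and the expression values had been seen, and a match of letters is not a measured binding site.

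Ogt encodes O-GlcNAc transferase, which also cleaves the transcriptional regulator HCF-1. In Control replicates 1, 2 and 3 its level was 132, 121 and 130 CPM. In the same order, the STZ replicates had 89.3, 89.4 and 88.3 CPM. The groups did not overlap, and the STZ samples lay closer together than the Control samples. The mean was 128 ± 5.96 CPM in Control and 89 ± 0.632 in STZ (SD, n = 3 each), a log2 fold change of -0.52 (standard error 0.05, edgeR adjusted p = 1.1e-12). Of the 11870 genes tested, Ogt stood 705th from the lowest log2 fold change. In the GRCr8 annotation its span overlaps Rpl35al4, a ribosomal protein-like gene, and whether reads were counted by strand is not stated.

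Oga, also known as Mgea5, encodes the nuclear and cytosolic O-GlcNAcase. It was measured at 228, 212 and 214 CPM in the Control replicates and at 338, 343 and 340 CPM in the STZ replicates. All STZ samples were far above all Control samples. Means were 218 ± 8.85 CPM in Control and 340 ± 2.41 in STZ (SD, n = 3 each), and the log2 fold change was 0.64 (standard error 0.04, edgeR adjusted p = 5.8e-18). Oga had the 150th smallest p of the 11870 genes, counting both directions, and the 644th highest log2 fold change. It had 2331 to 5101 reads per sample. No other gene overlaps its span in that annotation.

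The ratio of Ogt to Oga counts needs no scaling between libraries. The Control libraries had ratios of 0.576, 0.569 and 0.608, and the STZ libraries had 0.264, 0.261 and 0.259. These are ratios of reads, not corrected for transcript length, so their size does not say which transcript was the more abundant. On the log2 scale the ratio was -0.78 ± 0.05 in Control and -1.94 ± 0.01 in STZ (SD, n = 3 each), a difference of -1.16 (standard error 0.03). The exact two-sided permutation test over the 6 samples gave p = 0.1, the smallest that 3 samples against 3 allow.

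**Figure D1:**
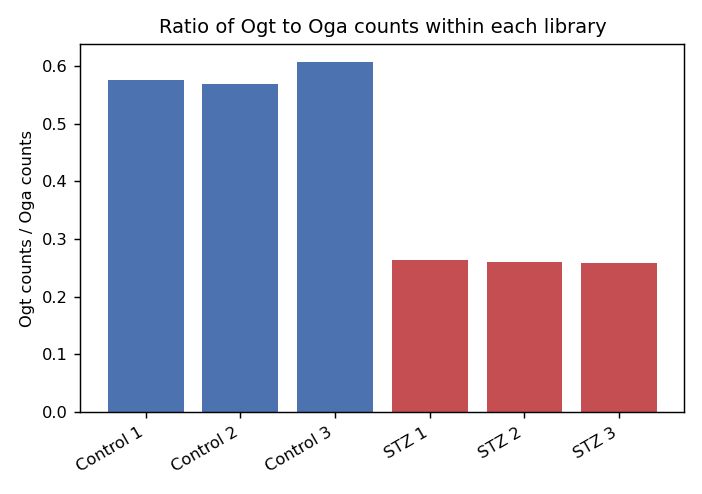
Ratio of Ogt to Oga counts (y axis, no unit, from 0) within each of the 6 libraries (x axis), Control in blue and STZ in red. The 3 Control libraries lie between 0.569 and 0.608 and the 3 STZ libraries between 0.259 and 0.264.

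Gfpt1 encodes glutamine:fructose-6-phosphate aminotransferase, which carries out the first and rate-limiting step of UDP-GlcNAc synthesis. It had 138, 134 and 140 CPM in the Control replicates and 162, 153 and 158 CPM in the STZ replicates. The groups did not overlap, though they lay close to each other. The log2 fold change was 0.20 (standard error 0.04, edgeR adjusted p = 0.00014), from 137 ± 3.41 CPM in Control to 158 ± 4.52 in STZ (SD, n = 3 each). Its isoenzyme Gfpt2 had 0, 2 and 0 reads in the Control replicates and 2, 1 and 6 in the STZ replicates, which is under the filter. The summed 9 reads in STZ against 2 in Control give a ratio of 3.76 after division by the totals, with an exact 95% interval of 0.778 to 35.8 that covers counting error only. A difference in Gfpt2 was not detectable at this depth. The log2 ratio of Gfpt2 to Gfpt1 counts, with 0.5 added to each count, differed by 1.34 (exact permutation p = 0.3, smallest possible 0.1), so no shift between the isoenzymes was detectable either. It was 2.16 without Control replicate 2 (exact permutation p = 0.1, the smallest then possible) but 0.86 without Control replicate 3 and 0.84 without STZ replicate 3.

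The steps that follow are carried by Gnpnat1, the acetyltransferase of glucosamine 6-phosphate, Pgm3, the mutase that moves the phosphate, and Uap1, the pyrophosphorylase that forms UDP-GlcNAc. Gnpnat1 had 23.2, 24.5 and 25.2 CPM in Control and 22.5, 21 and 26 in STZ. The groups overlapped, and the log2 fold change of -0.06 had a 95% interval of -0.23 to 0.11 (edgeR adjusted p = 0.58). Uap1, at 29.9, 31.1 and 35.5 CPM in Control and 32.5, 28.8 and 28.9 in STZ, also overlapped. Its log2 fold change was -0.10, with a 95% interval of -0.25 to 0.05 (edgeR adjusted p = 0.26). Neither interval reaches the log2 fold change of Ogt or of Oga. In the GRCr8 annotation, Gnpnat1 overlaps Rps10l6 and Uap1 overlaps an unnamed long non-coding RNA.

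Pgm3 was at 50.6, 48 and 48 CPM in Control and 54.6, 54 and 52.4 in STZ, so the lowest STZ sample was just above the highest Control sample. The log2 fold change was 0.13 (standard error 0.06, edgeR adjusted p = 0.047). This call was lost in 8 of 14 alternatives, among them DESeq2's Wald test (adjusted p = 0.13), scaling by library size only (edgeR adjusted p = 0.14) and removal of Control replicate 2 or 3 or STZ replicate 1 (edgeR adjusted p = 0.12 each) or 2 (edgeR adjusted p = 0.089). Over all 14, its adjusted p ranged from 0.041 to 0.14. The direction was kept in each.

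Nagk encodes N-acetylglucosamine kinase, which returns GlcNAc freed by the breakdown of glycans to the pathway and so bypasses the Gfpt step. Its level was 34.5, 33.7 and 30.3 CPM in the Control replicates and 43.5, 42.1 and 42 in the STZ replicates. The STZ samples were all above the Control samples. With 32.8 ± 2.26 CPM in Control and 42.5 ± 0.799 in STZ (SD, n = 3 each), the log2 fold change was 0.38 (standard error 0.07, edgeR adjusted p = 6.9e-06). That change was larger than those of Gfpt1 and Pgm3, although the differences between genes were not tested.

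**Figure D2:**
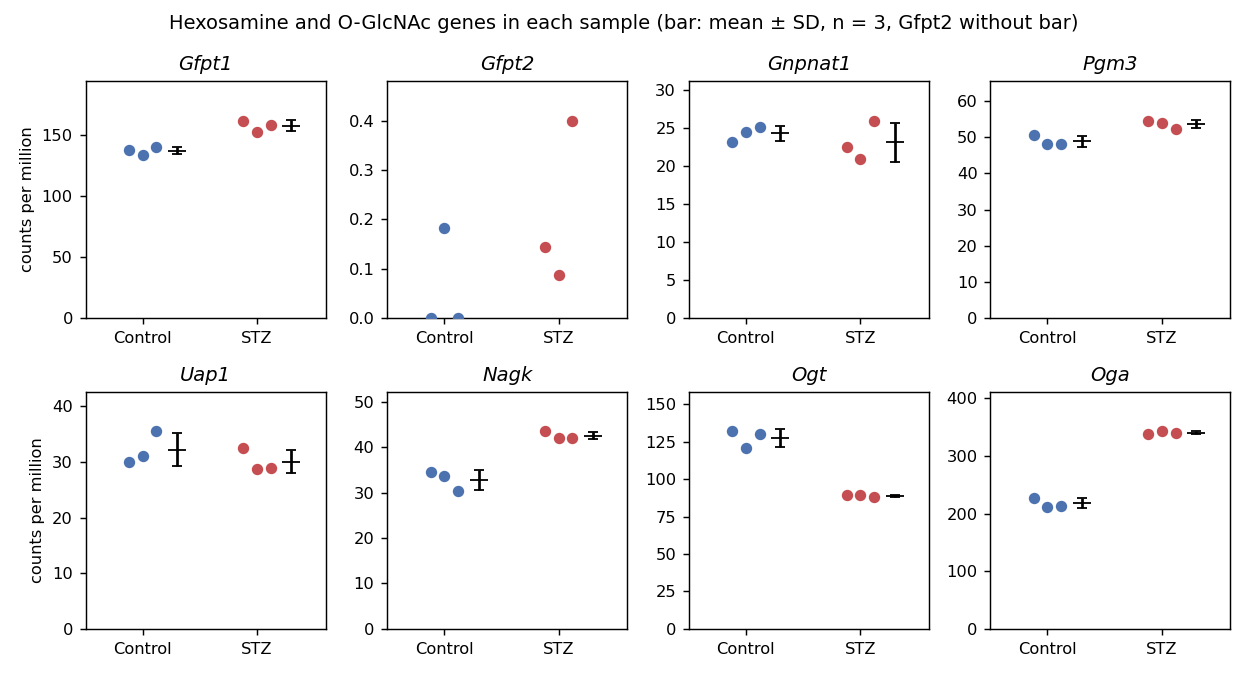
Level of each of the 8 genes in CPM (y axes, from 0, each panel with its own scale) in the 3 Control (blue) and 3 STZ (red) samples; black bars are the mean ± SD, drawn for all but Gfpt2. Ogt falls from 121 to 132 down to 88.3 to 89.4, and Oga rises from 212 to 228 up to 338 to 343, while Gnpnat1 and Uap1 overlap between groups.

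Of the 8 genes, 7 passed the filter on low counts, and Gfpt2 did not. An adjusted p under 0.05 was reached by 4 that were higher in STZ (Oga, Nagk, Gfpt1 and Pgm3) and by 1 that was lower (Ogt). Among all 11870 genes tested, 25.9% were higher and 25.1% lower at that threshold, 50.9% in all. The 5 of 7 called here (71.4%) stand against that background, so the count by itself says little about these genes. The groups did not overlap in the same 5 genes. Over all genes, STZ lay wholly above Control in 28.6% and wholly below in 27.7%, 56.3% in all. None of the 7 also passed an absolute log2 fold change over 1, which 3.37% of all genes did; 5 of the 7 had an unadjusted p under 0.05 by edgeR and 4 by DESeq2, which also called none past that fold change. The median log2 fold change of the 7 was 0.13, against -0.01 over all genes tested.

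**Figure D3:**
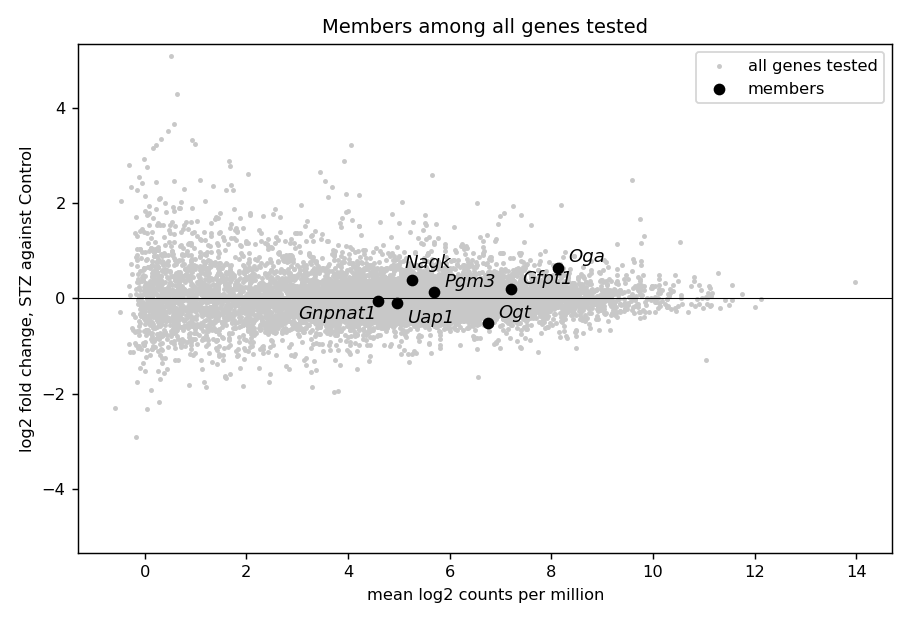
Mean level (x axis, log2 CPM) and log2 fold change, STZ against Control (y axis) of the 11870 genes tested (grey) and of the 7 hexosamine and O-GlcNAc genes among them (black). Oga (0.64) lies highest and Ogt (-0.52) lowest of the 7, while Gnpnat1 (-0.06), Uap1 (-0.10) and Pgm3 (0.13) lie near 0.

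Genes that feed the pathway or branch from it were next. Of 15 listed, 14 were tested, 7 were higher and 4 lower at an adjusted p under 0.05 (78.6% called, against 50.9% of all genes), with a median log2 fold change of 0.13. Several of the larger changes were in genes that handle GlcNAc or ManNAc, as the list was chosen to hold such genes. Those called lower included Gpi (log2 fold change -0.25, edgeR adjusted p = 4.7e-08) and Slc35b4 (log2 fold change -0.26, edgeR adjusted p = 0.00017). Renbp, the epimerase that interconverts GlcNAc and ManNAc, had 8.2, 9.18 and 7.8 CPM in Control and 17.7, 18.4 and 15 in STZ. Its log2 fold change of 1.02 (standard error 0.11, edgeR adjusted p = 6e-10) was the only value of this list past the study's fold-change threshold, and lay just beyond it.

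Gne, the bifunctional enzyme that starts sialic acid synthesis from UDP-GlcNAc, had the smallest p of the list among higher genes. It was at 47.5, 50.9 and 51 CPM in Control and 74.2, 79.8 and 78.3 in STZ, without overlap, a log2 fold change of 0.63 (standard error 0.05, edgeR adjusted p = 4.3e-13). The next enzymes of sialic acid synthesis did not rise with it, since log2 fold changes were -0.04 for Nans and -0.01 for Cmas, neither past the test, and -0.17 for Nanp (edgeR adjusted p = 0.043). Amdhd2, which removes the acetyl group from GlcNAc 6-phosphate and so runs against synthesis, and Uap1l1, a relative of Uap1, had log2 fold changes of 0.61 and 0.70 (edgeR adjusted p = 1.6e-08 and 2e-10). Gpi, Slc35b4, Nans, Cmas, Nanp, Amdhd2 and Uap1l1 were chosen for naming after their values were seen.

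**Figure D4:**
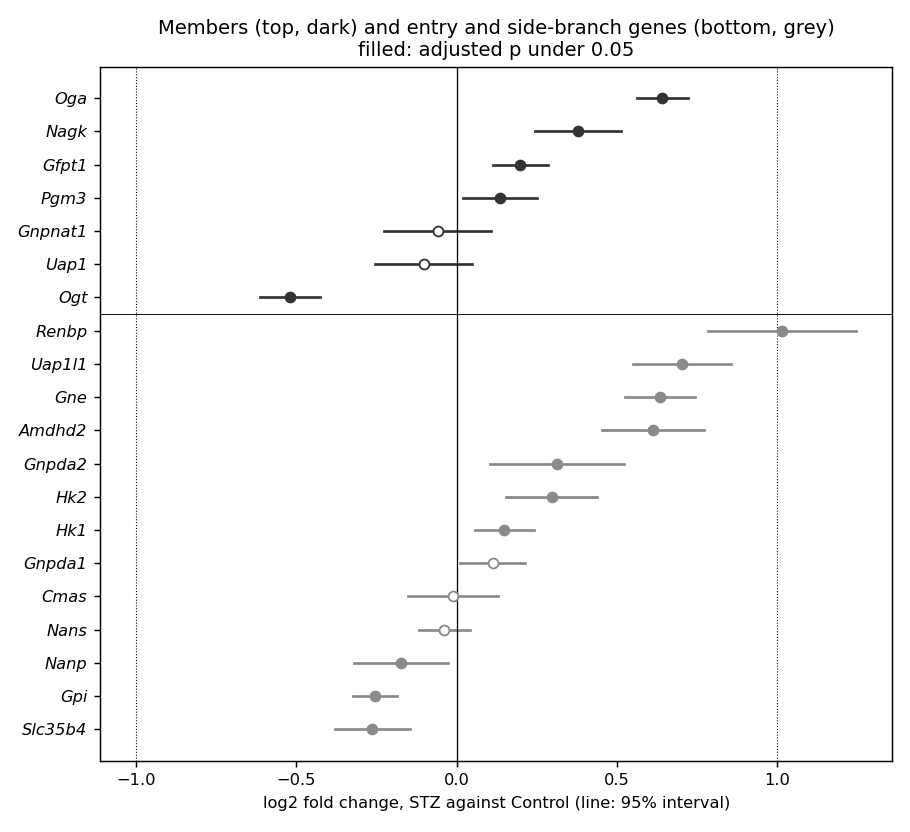
Log2 fold change, STZ against Control (x axis), with its 95% interval (lines), of the 7 hexosamine and O-GlcNAc genes tested (top, dark) and of entry and side-branch genes (bottom, grey); filled points have an adjusted p under 0.05 and dotted lines mark -1 and 1. Oga (0.64) and Ogt (-0.52) bound the upper group, and Renbp (1.02) lies highest in the lower.

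Genes of enzymes that use UDP-GlcNAc numbered 23, of which 19 were tested, 3 were under the filter and 1, Alg13, was left out because its name stands on 2 rows. Of the 19, 4 were higher and 8 lower (63.2% called, against 50.9% of all genes), and the median log2 fold change was -0.05. Without Control replicate 3 the number called was 7 instead of 12. Mgat1, which opens the synthesis of complex N-glycans, went from 245 ± 2.8 CPM in Control to 314 ± 3.05 in STZ (SD, n = 3 each), a log2 fold change of 0.36 (edgeR adjusted p = 8.5e-11). Lfng, the fringe enzyme that adds GlcNAc to Notch, went from 95.7 ± 4.2 to 76.9 ± 4.25 CPM, a log2 fold change of -0.32 (edgeR adjusted p = 9.7e-07). The hyaluronan synthase Has1 passed both thresholds with a log2 fold change of -1.19 (standard error 0.36, edgeR adjusted p = 0.0056), but rested on 24, 16 and 13 reads in Control and 10, 8 and 9 in STZ.

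Lysosomal enzymes that free GlcNAc from glycans, the substrate of Nagk, were listed with 7 genes, of which 6 were tested. Of these, 4 were higher and none lower by edgeR. The other 2 were without a call and did not reach an unadjusted p under 0.05 either. Over the alternative settings, 3 to 4 were called. Over all genes, 25.9% were higher and 50.9% called. The median log2 fold change was 0.12. Hexa, the alpha subunit of lysosomal hexosaminidase, had the smallest p, at 176, 178 and 176 CPM in Control and 222, 228 and 221 in STZ. Its log2 fold change was 0.34 (standard error 0.04, edgeR adjusted p = 1.2e-09).

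Of 11 genes for proteins known to bind OGT, 9 were tested, 2 were higher and 3 lower (55.6% called, close to the 50.9% of all genes), with a median log2 fold change of -0.03. Hcfc1 encodes HCF-1, the partner and substrate that OGT cleaves. It was at 262, 246 and 277 CPM in Control and 184, 194 and 189 in STZ, without overlap. Its log2 fold change of -0.47 (standard error 0.04, edgeR adjusted p = 1.2e-12) was near that of Ogt. Trak1, an adaptor that links mitochondria to kinesin, had the smallest p among higher genes, with a log2 fold change of 0.34 (edgeR adjusted p = 3.2e-06).

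Gfpt1 and other genes of the pathway are known targets of XBP1, a factor of the unfolded protein response, so targets of XBP1 and ATF6 were counted as well. Of 14 listed, 13 were tested, 5 were higher and 1 lower, a share of 46.2% against 50.9% of all genes, and the median log2 fold change was 0.06. Dnajc3, an inhibitor of eIF2alpha kinases, had the smallest p among higher genes and a log2 fold change of 0.34 (edgeR adjusted p = 6.4e-08). Pdia4, a protein disulfide isomerase, was the single lower gene, with a log2 fold change of -0.16 (edgeR adjusted p = 0.00033).

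**Figure D5:**
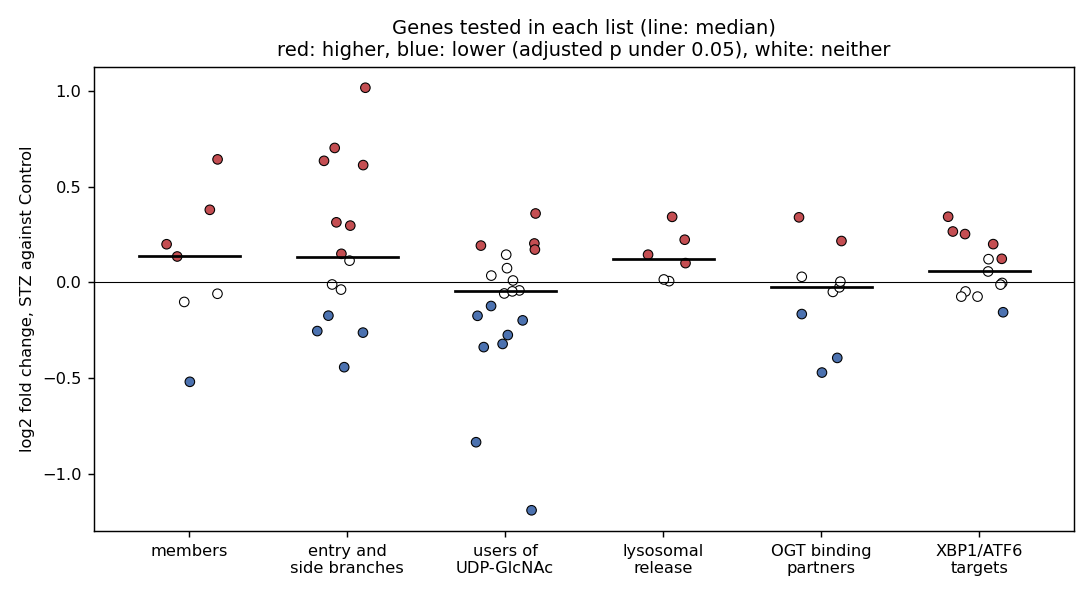
Log2 fold change, STZ against Control (y axis), of the genes tested in the hexosamine and O-GlcNAc core and in each list of related genes (x axis); points are genes, spread sideways for legibility, red for higher and blue for lower at an adjusted p under 0.05, white for neither, and lines are medians. Medians lie between -0.05 and 0.13. The highest values are 0.64 in the core, 1.02 among the entry and side-branch genes and 0.36 among users of UDP-GlcNAc. They are 0.34 among the lysosomal genes, the OGT binding partners and the unfolded protein response genes. The lowest value of the figure is -1.19, among users of UDP-GlcNAc. The core reaches down to -0.52 and the OGT binding partners to -0.47.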

How the data were processed

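RNA of NRK-52E cells (3 STZ and 3 Control samples) was sequenced from stranded mRNA libraries. The deposited values are raw counts per gene, which the authors obtained by STAR 2.7.10a mapping to Rnor6 and featureCounts on uniquely mapped reads. The annotation and strand setting are not given in the sources used here.

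From these counts, edgeR 4.0.16 in R 4.3.3 gave the filter (filterByExpr), TMM scaling and quasi-likelihood test over 11870 of 18930 rows, with Benjamini-Hochberg adjustment. Calls required an adjusted p under 0.05; the study, which also used edgeR, further required the log2 fold change to exceed 1 in size. Standard errors were derived from the log2 fold change and the F statistic, and 95% intervals use the test's degrees of freedom. Total counts of 10430924 to 15191349 set the precision for low genes. The steps were tested on simulated counts.

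The members and lists were chosen with earlier results of these data known. Besides the members, the genes named are those with the smallest p in each direction of each list, those past both thresholds, and the 3 closest in profile to Ogt and to Oga. Genes named outside this rule are marked. The values of 1 gene are not reported here, though it enters the counts.

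Alternatives were 2 filters, 3 scalings, DESeq2 1.42.0, limma-voom (limma 3.58.1), glmTreat, the replicate block and each sample left out. Correction of the count ratios for coding length was not run.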

Additional observations from a re-analysis of the deposited data

How the results depend on the processing

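Over 98 refits of the 7 tested genes, 89 kept the direction and the side of the adjusted p threshold. The other 9 concerned Pgm3, which lost its call in 8, and Gnpnat1, not called in any. The log2 fold change of Pgm3 was 0.13 with no filter, 0.12 with the upper quartile, 0.10 with library size only, 0.13 with DESeq2's Wald test, and 0.12 to 0.16 with 1 sample left out. That of Gnpnat1 was -0.15 to 0.0018 with 1 sample left out, above 0 only without STZ replicate 2. The causes were not tested. Ogt lay between -0.56 and -0.50, Oga between 0.61 and 0.67, Gfpt1 between 0.17 and 0.22, and Nagk between 0.32 and 0.41. Uap1, not called in any, lay between -0.16 (without STZ replicate 1) and -0.02 (without Control replicate 3). Called genes of the core numbered 4 to 5, and 0 passed both thresholds in each alternative, glmTreat included. The number of users of UDP-GlcNAc called was 7 to 11 with 1 sample left out, 7 without Control replicate 3; the cause was not tested. The other 4 lists stayed within 1.5 times their count. Other scalings moved the median of all genes no lower than -0.04.

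Same-numbered Control and STZ samples had correlations of deviations of 0.0324, -0.0378 and 0.105 over 10341 genes. Low correlations do not exclude pairing, so whether same-numbered samples were paired, which is not stated, could not be decided. With the replicate block, 5 core genes were called, Ogt stood at -0.52 and Oga at 0.64, and the difference in the Ogt to Oga ratio was -1.16 (exact sign permutation p = 0.25, the smallest 3 pairs allow). The block changed no call of a core gene.

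Depth limited Gfpt2, with at most 6 reads in a sample.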

Other observations

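Over the 6 samples, the genes whose log2 CPM profile, centred on its mean, lay closest to that of Ogt were Gemin2, Jade2 and Prmt1, at Euclidean distances of 0.0459, 0.0469 and 0.0629 among 9890 candidates with at least 50 normalized counts. Prmt1 encodes the main arginine methyltransferase for asymmetric dimethylation and Gemin2 a component of the SMN complex, which assembles small nuclear ribonucleoproteins. Their log2 fold changes were -0.50 for Gemin2, -0.49 for Jade2 and -0.51 for Prmt1. Closest to Oga were RT1-DMa, Golm1 and Grina, at distances of 0.0709, 0.0825 and 0.0847, with log2 fold changes of 0.65, 0.67 and 0.66. RT1-DMa encodes a chain of the peptide exchanger of MHC class II, and Golm1 a membrane protein of the Golgi. With 2 groups of 3 samples, this likeness mostly repeats the size of the group difference.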
